A study of Mus musculus with 8 samples.

Results

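Tumor-associated macrophages (TAM) were set against fibroblasts sorted from the same kind of tumor, Lewis lung carcinoma (LLC), a mouse lung cancer cell line grown under the skin. The comparison used 4 of the 8 libraries of the study, TAM 1, TAM 2, Fibroblast 1 and Fibroblast 2, chosen by their labels. The other 4 libraries (whole tumors and LLC cells) entered only the estimate of the spread. Tumors came from LLC cells that carried the red fluorescent protein dTomato, injected into both flanks of transgenic Col1a1-GFP mice, in which the green protein marks cells that use the Col1a1 gene. Alexa 647-labelled collagen was injected into the tumors 24 h before the cells were sorted. Fibroblast libraries are of GFP+ cells. TAM libraries are of cells negative for dTomato and GFP and positive for F4/80 and for the labelled collagen, and the labels call them M2. The sort thus set the level of Col1a1 and of Emr1, the gene of F4/80, in advance, and only TAM had to hold collagen. No source used here states the age or sex of the mice, or that TAM 1 and TAM 2, or Fibroblast 1 and Fibroblast 2, were taken from different mice. The p-values therefore cover the spread among the 8 libraries, which may be technical.

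Macrophages of a tumor derive largely from blood monocytes. They engulf particles, digest them in lysosomes, present antigens and secrete chemokines and cytokines. Fibroblasts are mesenchymal cells that build the matrix and supply growth factors, chemokines and inhibitors that act on neighboring cells. Macrophages depend for survival on the receptor CSF1R, whose ligands CSF1 and IL-34 can come from fibroblasts, and fibroblasts respond to platelet-derived growth factors through PDGFRA and PDGFRB. Genes of collagen synthesis, uptake and breakdown are left aside here.

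The marker genes matched the labels. Emr1 stood at 162 and 229.6 RPKM in TAM 1 and TAM 2 and 1.88 and 3.20 RPKM in Fibroblast 1 and Fibroblast 2, and Csf1r at 397 and 459 RPKM in TAM 1 and TAM 2 and 9.25 and 9.34 RPKM in Fibroblast 1 and Fibroblast 2. The pan-leukocyte gene Ptprc stood at 63.6 and 98.1 RPKM in TAM against 1.90 and 3.23 in Fibroblast, the integrin gene Itgam at 320.1 and 472 RPKM in TAM against 4.32 and 7.65 in Fibroblast and the lysosomal macrophage marker Cd68 at 1693 and 1220.01 RPKM in TAM against 15.8 and 22.7 in Fibroblast. On the other side, Col1a1 stood at 5315 and 4200.4 RPKM in Fibroblast against 18 and 123 in TAM, Pdgfra at 104 and 145 RPKM in Fibroblast against 1.14 and 3.17 in TAM and Pdgfrb at 65.7 and 52.4 RPKM in Fibroblast against 0.455 and 1.66 in TAM. The groups did not overlap for any of these 8 genes. Each population also held a little of the other's transcripts. Over 19 macrophage identity genes, Fibroblast 1 and Fibroblast 2 lay at a median of 1.31 and 1.88% of the TAM mean. Over 19 fibroblast identity genes, leaving out S100a4, which macrophages also use, TAM 1 and TAM 2 lay at a median of 0.919 and 3.15% of the Fibroblast mean, so TAM 2 held more of them than TAM 1. In bulk libraries a small number of cells of the other type and a low level in every cell cannot be told apart.

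Markers of further cell types were present at lower levels. Pericyte markers summed to 298 and 192 RPKM in the Fibroblast libraries and 3.63 and 6.18 RPKM in TAM. That sum includes Pdgfrb, used above as a fibroblast marker, and the contractile gene Des. Epithelial markers, among them Krt19, summed to 25.6 RPKM in Fibroblast 1 and 197 RPKM in Fibroblast 2, against 11.4 and 13.8 in TAM 1 and TAM 2. B cell markers summed to 65.6 and 22.5 RPKM in TAM 1 and TAM 2 and 2.95 and 11.3 in Fibroblast 1 and Fibroblast 2. Neutrophil markers summed to 86.8 and 74.8 RPKM in TAM and 6.48 and 4.61 in Fibroblast, and 4 of 6 tested, Csf3r, Mmp8, S100a9 and S100a8, were called higher in TAM (2 without any 1 of the 4 libraries). Of 11 neutrophil markers with values, 2, the granule genes Mpo and Camp, were at 0 in both TAM libraries, and 4 were at 0 in both Fibroblast libraries. The granule genes Elane, Ngp and Ltf were not at 0 in both TAM libraries, but did not reach the level needed for testing. Stress and immediate early genes, which respond to tissue dissociation, summed to 6347 RPKM in TAM 1 and 5891 in Fibroblast 1, and to 3673 and 2401 in TAM 2 and Fibroblast 2. Estimated depth ran from 4.28 to 10.36 M reads over the 8 libraries.

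Of 13311 genes tested, 2314 (17.4%) were called higher in TAM and 2300 (17.3%) were called lower, 34.7% in either direction. A call is an adjusted p under 0.05 in limma's moderated test on log2(RPKM + 1), where RPKM is the number of reads relative to the length of the transcript and the depth of the library, and every log2 difference below is TAM minus Fibroblast on that scale. The differences were large. Among the calls, 481 genes had a log2 difference over 3 and 663 one under -3. Genes called higher in TAM held 53.2 and 51.9% of the summed RPKM of TAM 1 and TAM 2 and 11 and 11.1% of that of Fibroblast 1 and Fibroblast 2. Genes called lower held 42.0 and 42.6% of the Fibroblast libraries and 2.50 and 3.46% of the TAM libraries. The TAM and Fibroblast libraries did not overlap for 73.1% of all genes tested, so lack of overlap alone singles out no gene. They did not overlap for any gene named below as called. The lists below name genes by their known roles, and they were chosen with earlier results of these data known. A count near 17.4% of a list higher or 17.3% lower is the share of all genes and says nothing particular of the list. All 19 tested macrophage identity genes were higher in TAM (median 5.57), and 19 of 20 fibroblast identity genes were lower (median -5.28). The exception was S100a4, called higher (log2 difference 2.25, adjusted p = 0.0182), a call lost without any 1 of the 4 libraries (up to 0.169 without Fibroblast 2). The median over all genes was 0.13, beside which the list medians below are to be read. Upper-quartile rescaling moved it to -0.15, with 1773 genes higher and 2845 lower, so that the share of calls on the TAM side went from 50.2 to 38.4%. Left without Fibroblast 1, Fibroblast 2 or TAM 1, the test called 1424, 1382 or 1485 genes higher.

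The genes with the largest differences on the TAM side were secreted chemokines, complement and receptor adaptor genes. Pf4, which encodes the CXC chemokine platelet factor 4, led with 2835 and 1488 RPKM in TAM 1 and TAM 2 and 19.3 and 15.2 RPKM in Fibroblast 1 and Fibroblast 2 (log2 difference 6.83, SE 0.69, adjusted p = 0.000218). Its neighbor Ppbp, the gene of another platelet-associated CXC chemokine, had 449.6 and 253 RPKM in TAM 1 and TAM 2 and 3.21 and 1.96 RPKM in Fibroblast 1 and Fibroblast 2 (log2 difference 6.58, SE 0.40, adjusted p = 0.000104). Both TAM libraries lay far above both Fibroblast libraries, and TAM 1 held more of either transcript than TAM 2. Arg1, the arginine-degrading enzyme used as a marker of alternative activation, stood at 1230.2 and 1661 RPKM in TAM 1 and TAM 2 and 7.92 and 19.9 RPKM in Fibroblast 1 and Fibroblast 2 (log2 difference 6.71, SE 0.81, adjusted p = 0.000474). The C-type lectin receptor Clec4d, a pattern receptor of myeloid cells, had 282 and 128 RPKM in TAM against 1.52 and 1.11 in Fibroblast, and the chemokine Ccl6 had 3256 and 3083 RPKM in TAM against 31 and 44.6 in Fibroblast (log2 differences 6.37 and 6.37, adjusted p = 0.000323 and 0.000411). The remaining leaders were the 3 C1q genes, Ccl9, Cd68 and the adaptor genes Tyrobp and Fcer1g. In these 12 genes the Fibroblast mean was between 0.64% (Clec4d) and 1.32% (Cd68) of the TAM mean. Those percentages lie near or below the medians of 1.31 and 1.88% of the macrophage identity genes. Low percentages follow from choosing the largest differences, and Tyrobp, Fcer1g and Cd68 are themselves macrophage identity genes. The part of admixed cells in the Fibroblast values was not tested.

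Pf4 and Ppbp lie next to each other in the genome, with annotated starts 3917 bases apart on chromosome 5. Their promoters (250 bases before the start to 50 bases after it, RefSeq, GRCm38.p6) are shown because both genes moved together at the head of the comparison, beside that of C1qc, the leading complement gene. Capitals mark the letters GAGGAAGT, a binding sequence of the macrophage factor PU.1, here on the opposite strand and therefore printed as ACTTCCTC, and in Ppbp the TATA box letters TATAAA.
Pf4, chr5:90772185-90772484, plus strand: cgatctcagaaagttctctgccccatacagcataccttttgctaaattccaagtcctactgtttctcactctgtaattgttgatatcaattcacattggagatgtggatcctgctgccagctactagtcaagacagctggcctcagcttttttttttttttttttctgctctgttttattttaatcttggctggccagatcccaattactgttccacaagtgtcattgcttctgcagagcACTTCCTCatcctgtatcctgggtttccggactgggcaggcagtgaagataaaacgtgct
Ppbp, chr5:90768268-90768567, plus strand: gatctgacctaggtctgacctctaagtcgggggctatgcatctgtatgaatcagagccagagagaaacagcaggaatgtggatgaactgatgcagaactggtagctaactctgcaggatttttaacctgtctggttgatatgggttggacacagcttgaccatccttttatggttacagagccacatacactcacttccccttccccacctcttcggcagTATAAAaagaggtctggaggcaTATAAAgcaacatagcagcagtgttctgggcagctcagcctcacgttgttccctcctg
C1qc, chr4:136892865-136893164, minus strand: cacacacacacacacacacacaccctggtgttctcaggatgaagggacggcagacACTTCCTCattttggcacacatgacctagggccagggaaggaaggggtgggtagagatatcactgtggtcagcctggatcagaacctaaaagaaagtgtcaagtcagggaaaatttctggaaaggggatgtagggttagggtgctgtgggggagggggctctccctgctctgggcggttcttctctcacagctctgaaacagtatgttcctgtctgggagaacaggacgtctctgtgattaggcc
The PU.1 letters began 10 bases before the start of Pf4 and 195 bases before that of C1qc. They are in 3.2% of 32851 mouse promoters of this length on either strand. Among the 9 leading TAM genes with a promoter, 2 held these letters, Pf4 and C1qc, and the others did not. In Ppbp, TATAAA began 30 and 8 bases before the start, and 2.32% of promoters hold it on the gene's strand between 20 and 50 bases before the start (13.6% anywhere on either strand). Of the 24 leading genes of both directions, 16 had a promoter in the table. Over all genes tested only 77.6% had one, so no comparison of motif shares between gene sets was made.

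The leading genes on the Fibroblast side encoded secreted and cell surface proteins. Clec3b, which encodes the plasminogen-binding protein tetranectin, stood at 992 and 937 RPKM in Fibroblast 1 and Fibroblast 2 and 1.65 and 23.3 RPKM in TAM 1 and TAM 2 (log2 difference -6.91, SE 0.92, adjusted p = 0.000733). Serping1, the inhibitor of the C1 complement proteases, stood at 1756 and 2039.6 RPKM in Fibroblast 1 and Fibroblast 2 and 5.22 and 41.9 RPKM in TAM 1 and TAM 2 (log2 difference -6.86, SE 0.89, adjusted p = 0.000654). Both Fibroblast libraries were alike and both TAM libraries were far lower, with TAM 2 above TAM 1. The same order of TAM 2 over TAM 1 held for each of the other 10 leaders. TAM 2 also held more of the fibroblast identity genes (a median of 3.15 against 0.919% of the Fibroblast mean), and the part of admixed cells in this order was not tested. These were Efemp1 and Fbln1 of the fibulin family, the protease inhibitor gene Serpina3n, the small proteoglycans Ogn and Dcn, the chemokine scavenger Ackr3, the carboxypeptidase-like gene Cpxm1, the complement protease C1s1, the WNT inhibitor Sfrp4 and the stromal surface protein Cd248. Their log2 differences ran from -6.62 (Efemp1) to -6.39 (Cd248), with adjusted p-values from 0.000106 (Fbln1) to 0.00074 (Serpina3n).

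**Figure D1:**
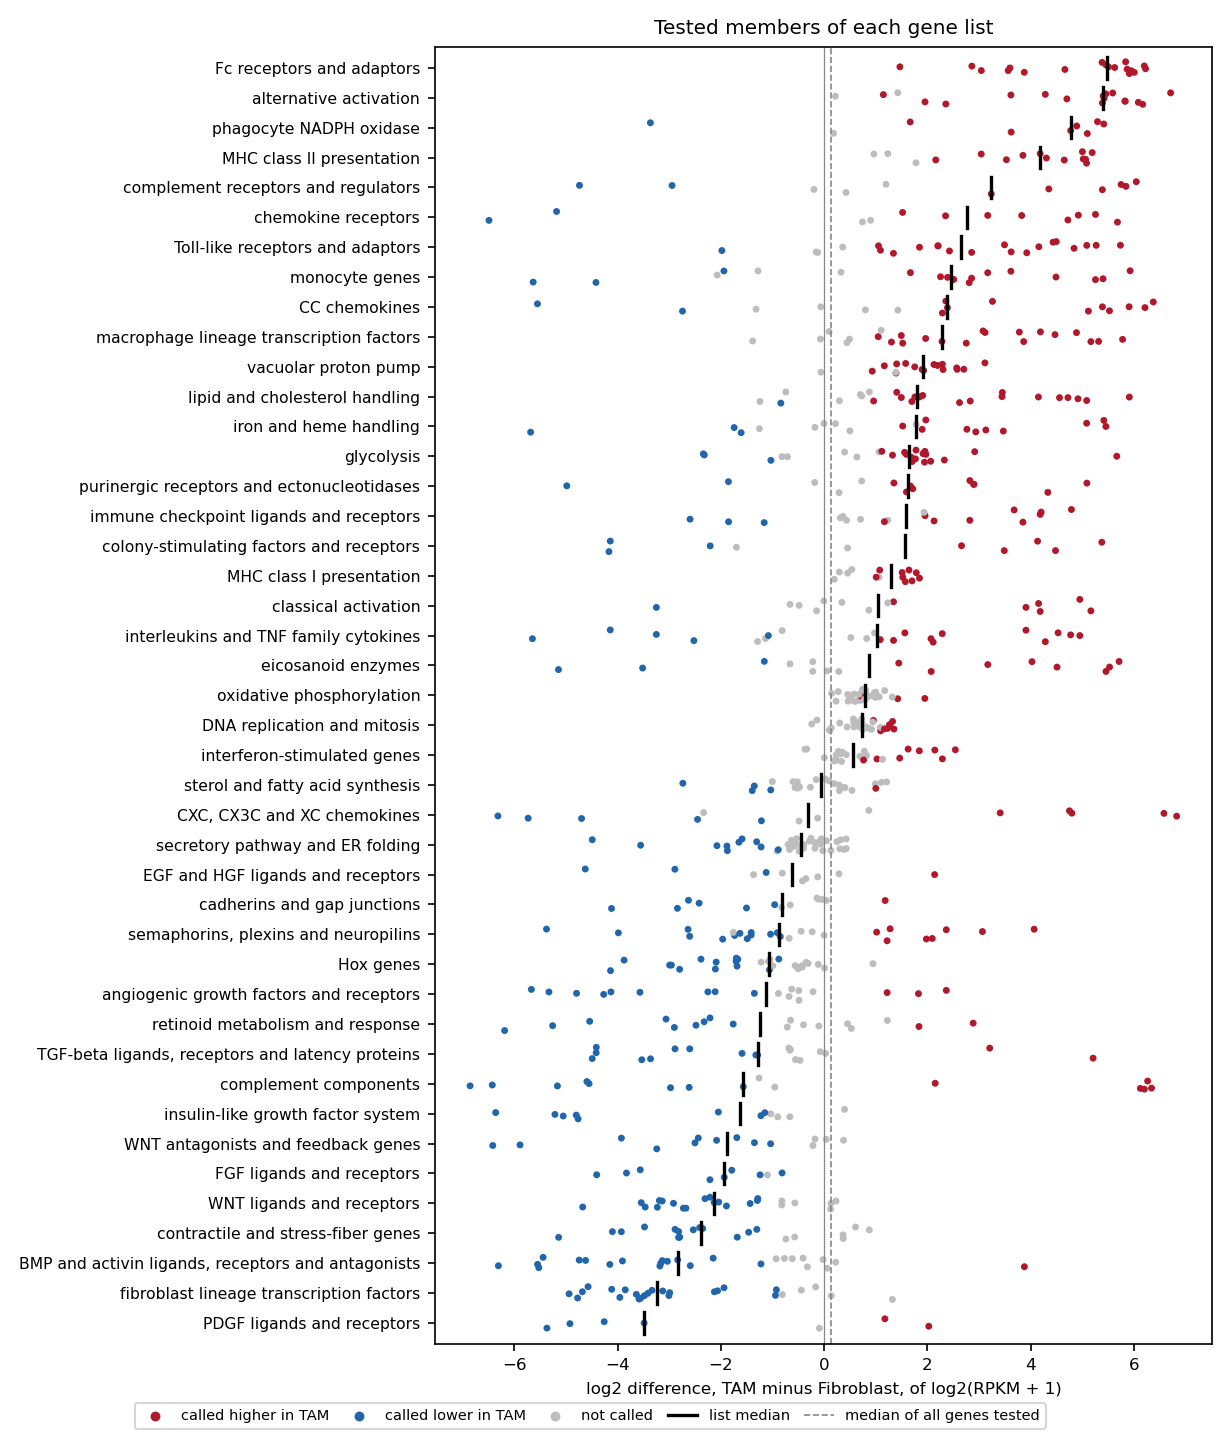
Log2 difference (TAM minus Fibroblast) of every tested member of 43 gene lists, each list in 1 row, with the list median as a bar and the median of all genes tested (0.13) as a dashed line. Fc receptors, alternative activation and NADPH oxidase genes lie to the right, as do macrophage lineage transcription factors. Growth factor, fibroblast lineage transcription factor and contractile lists lie to the left. Complement components and CXC chemokines reach far in both directions.

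Complement, the plasma protein cascade that tags particles for uptake, was divided by component between the populations. The cascade begins with C1q, which binds a target and activates the proteases C1r and C1s. These cut C4 and C2, and the cut products lead to C3, whose fragments mark the target and attract cells through C3AR1. Of 15 tested components, 5 were higher and 8 lower in TAM, with a list median of -1.57. All 3 chains of C1q were on the TAM side. C1qa stood at 3789 and 2436 RPKM in TAM 1 and TAM 2 and 37.6 and 39.5 RPKM in Fibroblast 1 and Fibroblast 2 (log2 difference 6.26, SE 0.87, adjusted p = 0.000924). C1qb stood at 3833 and 2666 RPKM in TAM against 40.5 and 44.4 in Fibroblast and C1qc at 2793 and 1949.9 RPKM in TAM against 27.4 and 28.3 in Fibroblast (log2 differences 6.20 and 6.34, adjusted p = 0.000759 and 0.000963). TAM 1 was above TAM 2 for each chain, and Fibroblast 1 and Fibroblast 2 were nearly equal.

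The proteases that C1q activates, and what they cut, lay on the Fibroblast side. C1s1 stood at 401 and 486 RPKM in Fibroblast 1 and Fibroblast 2 and 1.45 and 9.78 RPKM in TAM 1 and TAM 2 (log2 difference -6.43, SE 0.65, adjusted p = 0.000226), and the C1r gene C1ra at 230.2 and 276 RPKM in Fibroblast 1 and Fibroblast 2 and 7.21 and 13.1 RPKM in TAM 1 and TAM 2 (log2 difference -4.55, SE 0.32, adjusted p = 0.00011). C2 stood at 68.8 and 101 RPKM in Fibroblast against 2.62 and 2.38 in TAM (log2 difference -4.60, adjusted p = 0.000104). C3, the central component, stood at 2158 and 3348 RPKM in Fibroblast 1 and Fibroblast 2 and 45.8 and 119 RPKM in TAM 1 and TAM 2 (log2 difference -5.17, SE 0.83, adjusted p = 0.00193). Fibroblast libraries thus held the higher level of the chain from C1r and C1s through C2 to C3, as well as of Serping1, which inhibits C1r and C1s. C4b stood at 442 and 589.6 RPKM in Fibroblast against 56.2 and 73 in TAM (log2 difference -2.98, adjusted p = 0.0072, and 0.0664 without Fibroblast 2 and 0.0552 without TAM 1). Near-identical gene copies exist for C4b (C4a), C1ra and C1s1, and reads shared between copies make these levels uncertain. Cfp, which encodes properdin, a stabilizer of the alternative pathway, was with C1q on the TAM side, at 1008 and 755 RPKM in TAM against 11 and 12.1 in Fibroblast (log2 difference 6.12, adjusted p = 0.000116). C1ra, C2, C4b and Cfp were singled out after their values were seen. Without Fibroblast 2 or TAM 1 the count of components lower in TAM was 5.

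Receptors for complement fragments were called on the TAM side, and the regulators Cd55 and Clu on the Fibroblast side. Of 11 receptors and regulators tested, 6 were higher and 2 lower in TAM (median 3.24), the count lower near the share of all genes (17.3%). C5ar1, the receptor of the C5a fragment, stood at 280.3 and 222 RPKM in TAM against 1.98 and 3.82 in Fibroblast and C3ar1, that of C3a, at 209.7 and 217 RPKM in TAM against 2.28 and 3.82 in Fibroblast (log2 differences 6.05 and 5.75, adjusted p = 0.000318 and 0.000202). Itgam, a chain of complement receptor 3, had a log2 difference of 5.84 (adjusted p = 0.000336). In contrast, Cd55, which speeds the decay of complement convertases on cells, stood at 142 and 157 RPKM in Fibroblast against 3.57 and 5.94 in TAM, and Clu, the secreted inhibitor clusterin, at 30.2 and 76.5 RPKM in Fibroblast against 6.29 and 4.59 in TAM (log2 differences -4.74 and -2.95, adjusted p = 0.00227 and 0.00146). The other regulators of the cell surface that were tested, Cd59a and Cr1l, were not called (Cd59a was higher in TAM under quantile normalization alone), and both were named after their values were seen. Cd59a stood at 1.14 and 1.54 RPKM in TAM against 0.882 and 0.604 in Fibroblast and Cr1l at 27.7 and 23.2 RPKM in TAM against 31.1 and 27.5 in Fibroblast.

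**Figure D2:**
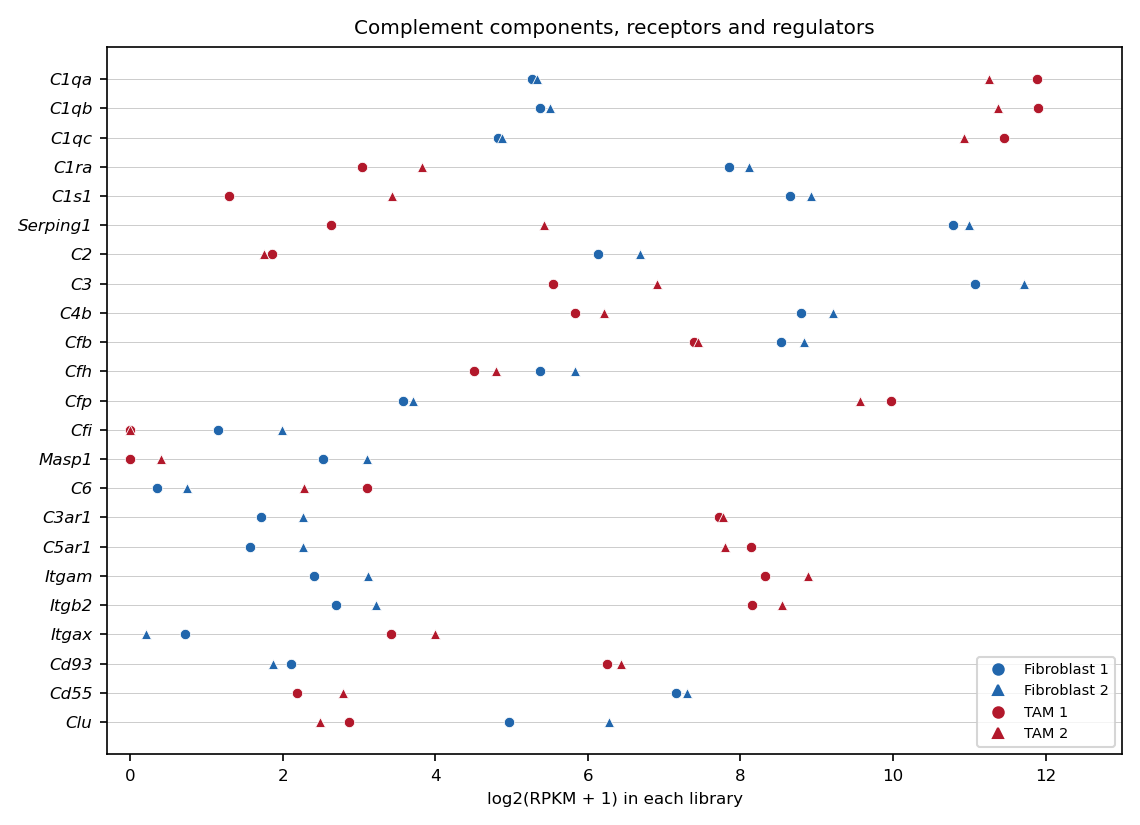
Level of 23 complement genes in each of the 4 libraries as log2(RPKM + 1), with Fibroblast in blue and TAM in red. C1qa, C1qb, C1qc, Cfp and the receptor genes C3ar1 and C5ar1 are higher in both TAM libraries, and C1ra, C1s1, Serping1, C2, C3, C4b and Cd55 are higher in both Fibroblast libraries.

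Genes through which phagocytes recognize antibodies and microbes were on the TAM side with few exceptions. Every one of the 18 tested Fc receptor and adaptor genes was called higher in TAM (median 5.48). Tyrobp, which encodes the signaling adaptor DAP12, stood at 1607 and 1169 RPKM in TAM 1 and TAM 2 and 17 and 17.7 RPKM in Fibroblast 1 and Fibroblast 2 (log2 difference 6.22, SE 0.73, adjusted p = 0.00042). Fcer1g, the signaling chain of activating Fc receptors, stood at 2543 and 1869 RPKM in TAM 1 and TAM 2 and 26 and 31.7 RPKM in Fibroblast 1 and Fibroblast 2 (log2 difference 6.20, SE 0.99, adjusted p = 0.00188). The inhibitory receptor gene Lilrb4 stood at 398 and 315 RPKM in TAM against 3.27 and 6.13 in Fibroblast (log2 difference 6.01, adjusted p = 0.000266). Among 22 Toll-like receptor genes and adaptors, 18 were higher and 1 lower (median 2.64). Ly86, which encodes the partner MD-1 of the receptor CD180, stood at 311 and 311 RPKM in TAM against 3.78 and 6.16 in Fibroblast, the lipopolysaccharide co-receptor Cd14 at 556 and 295 RPKM in TAM against 8.49 and 10.7 in Fibroblast and Tlr13, a sensor of bacterial ribosomal RNA, at 57.2 and 65.2 RPKM in TAM against 0.551 and 1.16 in Fibroblast (log2 differences 5.74, 5.27 and 5.09, adjusted p = 0.000116, 0.000104 and 0.000158). The 1 gene called lower was Irak3, an inhibitor of this signaling, at 53.3 and 60.5 RPKM in Fibroblast against 11.6 and 16.1 in TAM (log2 difference -1.98, adjusted p = 0.00551, and 0.0568 without Fibroblast 2).

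The enzyme that makes superoxide in phagocytes and its counterpart in other cells were on opposite sides. Of 9 genes of the NADPH oxidase list, 7 were higher and 1 lower in TAM (median 4.77). Cybb, the catalytic subunit NOX2 of the phagocyte enzyme, stood at 70.9 and 120.3 RPKM in TAM 1 and TAM 2 and 1.68 and 1.78 RPKM in Fibroblast 1 and Fibroblast 2 (log2 difference 5.10, SE 0.51, adjusted p = 0.000213). The cytosolic subunits Ncf1 and Ncf4 stood at 165 and 186 RPKM in TAM against 2.76 and 4.35 in Fibroblast and at 136 and 103 RPKM in TAM against 2.20 and 1.46 in Fibroblast (log2 differences 5.29 and 5.41, adjusted p = 0.000189 and 0.000257). Nox4, the constitutively active family member of mesenchymal cells, stood at 14.7 and 13.9 RPKM in Fibroblast 1 and Fibroblast 2 and 0.0310 and 1.14 RPKM in TAM 1 and TAM 2 (log2 difference -3.37, SE 0.46, adjusted p = 0.000827). Both TAM libraries held less Nox4 than either Fibroblast library.

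Eicosanoid enzymes, which make lipid mediators from arachidonic acid, were mostly called on the TAM side. Of 16 tested, 8 were higher and 3 lower in TAM (median 0.86). The count lower is near the share of all genes (17.3%). Alox5ap, which presents arachidonic acid to the leukotriene-forming lipoxygenase, stood at 763 and 729 RPKM in TAM 1 and TAM 2 and 9.75 and 17.9 RPKM in Fibroblast 1 and Fibroblast 2 (log2 difference 5.71, SE 0.65, adjusted p = 0.000362). The thromboxane synthase Tbxas1 stood at 84.1 and 78.1 RPKM in TAM against 0.880 and 0.857 in Fibroblast, and Pla2g7, which breaks down platelet-activating factor, at 335 and 285 RPKM in TAM against 5.81 and 5.64 in Fibroblast (log2 differences 5.46 and 5.53, adjusted p = 0.000319 and 0.000104). On the Fibroblast side were Ptgis, the prostacyclin synthase, at 125 and 97.4 RPKM in Fibroblast 1 and Fibroblast 2 and 1.68 and 2.69 RPKM in TAM 1 and TAM 2 (log2 difference -5.15, SE 0.53, adjusted p = 0.000241), and Ptges, the inducible prostaglandin E synthase, at 29.8 and 36.6 RPKM in Fibroblast against 1.76 and 2.20 in TAM (log2 difference -3.52, adjusted p = 0.000104). The groups did not overlap for any of these 5 genes.

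Genes of antigen presentation by class II molecules were higher in TAM, and those of class I differed less. Of 15 class II genes, 12 were called higher and none lower (median 4.18). Cd74, the invariant chain, stood at 3087 and 5459 RPKM in TAM 1 and TAM 2 and 101 and 122 RPKM in Fibroblast 1 and Fibroblast 2 (log2 difference 5.19, SE 0.80, adjusted p = 0.00156). The class II chains H2-Ab1 and H2-Eb1 stood at 994 and 1859.9 RPKM in TAM against 38.6 and 39.8 in Fibroblast and at 704 and 1156 RPKM in TAM against 25.9 and 26.1 in Fibroblast (log2 differences 5.08 and 5.06, adjusted p = 0.00089 and 0.000658). TAM 2 held more of each of these 3 transcripts than TAM 1, whereas the summed level of B cell markers, cells that also use class II genes, was higher in TAM 1. The summed level of dendritic cell markers, cells that use them as well, was 27.5 RPKM in TAM 1 and 50.6 in TAM 2 (91.1 and 83.9 in the Fibroblast libraries), with 1 of 7 tested, Cd209a, higher in TAM and 2 lower. The part of B cells and dendritic cells in the result was not tested. Class I genes had a median of 1.29, and 9 of 14 were called higher, but between 2 and 5 when either library of TAM or Fibroblast was left out (2 without Fibroblast 1, 3 without Fibroblast 2, 2 without TAM 1 and 5 without TAM 2). The immunoproteasome subunit Psmb9 stood at 127 and 96.1 RPKM in TAM against 24.3 and 36.9 in Fibroblast (log2 difference 1.85, adjusted p = 0.00281).

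The labels call the TAM cells M2, a name for macrophages activated by interleukin-4 and related signals. Of 18 genes used as markers of that state, 16 were called higher in TAM than in Fibroblast and none lower (median 5.40). Besides Arg1, the folate receptor gene Folr2 stood at 627 and 417 RPKM in TAM against 6.43 and 6.66 in Fibroblast (log2 difference 6.08, adjusted p = 0.000233). Retnla, which encodes the secreted protein RELM-alpha and was singled out after its value was seen, stood at 1054 and 2359.6 RPKM in TAM 1 and TAM 2 and 25.1 and 28.4 RPKM in Fibroblast 1 and Fibroblast 2 (log2 difference 5.83, SE 1.06, adjusted p = 0.00357). TAM 2 held more of it than TAM 1. Genes of the classical state induced by interferon-gamma and bacterial products were also present. Of 14 tested, 6 were higher and 1 lower (median 1.05). Il1b, which encodes interleukin-1 beta, stood at 151 and 73.2 RPKM in TAM 1 and TAM 2 and 2.84 and 2.08 RPKM in Fibroblast 1 and Fibroblast 2 (log2 difference 4.95, SE 0.42, adjusted p = 0.00014). The transcription factor Irf5 stood at 151 and 143 RPKM in TAM against 2.29 and 4.15 in Fibroblast and the T cell costimulator Cd86 at 28.1 and 25.8 RPKM in TAM against 0.418 and 0.666 in Fibroblast (log2 differences 5.17 and 4.18, adjusted p = 0.00014 and 0.000104). The 1 gene called lower was Il6, the gene of interleukin-6, at 75.5 and 9.94 RPKM in Fibroblast against 3.13 and 1.24 in TAM (log2 difference -3.25, adjusted p = 0.0372). Its call was lost without LLC 1, LLC 2, Fibroblast 1, TAM 1 or TAM 2 (up to 0.229 without Fibroblast 1). Both lists compare macrophages with fibroblasts, and neither compares states of macrophages.

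Genes linked to monocytes, the blood cells from which tumor macrophages arise, were mostly on the TAM side. Of 18 tested, 12 were higher and 3 lower (median 2.45), the latter 5 under upper-quartile rescaling or quantile normalization. The 3 called lower are not above the share of all genes (17.3%). F13a1, a coagulation factor subunit of monocytes and macrophages, stood at 289 and 416 RPKM in TAM against 3.88 and 5.70 in Fibroblast, Ms4a4c at 172 and 134 RPKM in TAM against 2.80 and 2.46 in Fibroblast and the chemokine receptor Ccr2 at 104 and 190.2 RPKM in TAM against 1.66 and 4.17 in Fibroblast (log2 differences 5.93, 5.40 and 5.25, adjusted p = 0.000321, 0.000246 and 0.000902). Of the genes on the Fibroblast side, Ace, which encodes angiotensin-converting enzyme, stood at 162 and 200.3 RPKM in Fibroblast 1 and Fibroblast 2 and 1.35 and 4.65 RPKM in TAM 1 and TAM 2 (log2 difference -5.64, SE 0.47, adjusted p = 0.000142), and the proteoglycan gene Vcan at 60.1 and 63 RPKM in Fibroblast against 10.8 and 21.4 in TAM (log2 difference -1.94, adjusted p = 0.00343). Ly6c1, the third, stood at 971 and 1060.4 RPKM in Fibroblast against 37.7 and 57.1 in TAM (log2 difference -4.42, adjusted p = 0.000157). Its close relative Ly6c2 is nearly identical in sequence, so reads may have been shared between them.

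Transcription factors separated the populations by lineage. Of 23 factors of the macrophage lineage, 17 were higher in TAM and none lower (median 2.28). Spi1, which encodes PU.1, stood at 363 and 300.05 RPKM in TAM 1 and TAM 2 and 4.05 and 6.19 RPKM in Fibroblast 1 and Fibroblast 2 (log2 difference 5.78, SE 0.76, adjusted p = 0.000686). Lyl1, a helix-loop-helix factor of blood cells, stood at 56 and 48.7 RPKM in TAM against 0.321 and 0.352 in Fibroblast (log2 difference 5.31, adjusted p = 0.000233). Of 26 factors of mesenchymal cells, 21 were lower in TAM and none higher (median -3.23). The odd-skipped factors Osr1 and Osr2 stood at 87.9 and 101 RPKM in Fibroblast against 1.28 and 3.22 in TAM and at 133 and 81.1 RPKM in Fibroblast against 2.67 and 3.53 in TAM (log2 differences -4.94 and -4.68, adjusted p = 0.000106 and 0.000164). The limb and craniofacial homeobox factor Prrx1 stood at 109 and 113 RPKM in Fibroblast 1 and Fibroblast 2 and 1.96 and 4.65 RPKM in TAM 1 and TAM 2 (log2 difference -4.77, SE 0.37, adjusted p = 0.000116).

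Hox genes, whose combination records a cell's position along the body axis, were detected in the Fibroblast libraries. Of 28 tested, 14 were lower in TAM and none higher (median -1.07, and 8 lower among genes that reach 5 RPKM). Hoxc6 stood at 24.1 and 15.9 RPKM in Fibroblast 1 and Fibroblast 2 and 0.367 and 0 RPKM in TAM 1 and TAM 2 (log2 difference -4.14, SE 0.39, adjusted p = 0.000184), Hoxc8 at 17.8 and 17.8 RPKM in Fibroblast against 0.0490 and 0.565 in TAM and Hoxc9 at 9.52 and 7.37 RPKM in Fibroblast against 0 and 0.390 in TAM (log2 differences -3.88 and -2.99, adjusted p = 0.000113 and 0.000167). The 3 largest differences were thus in genes of the HoxC cluster. Summed over the 39 Hox genes in the table, the level was 114 and 99.5 RPKM in Fibroblast and 7.90 and 12.9 RPKM in TAM.

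Lipid and iron handling genes were on the TAM side in the main. Of 24 lipid genes, 17 were higher and 1 lower (median 1.80). The 1 lower was the endocytic receptor Lrp1, whose call was lost without any 1 of the TAM, Fibroblast or LLC libraries. Under upper-quartile rescaling 2 were lower. Apoe, the carrier of cholesterol in lipoprotein particles, stood at 7612 and 3971 RPKM in TAM 1 and TAM 2 and 131 and 198 RPKM in Fibroblast 1 and Fibroblast 2 (log2 difference 5.08, SE 0.86, adjusted p = 0.00256), the highest level of this list in TAM. The lipid-sensing receptor Trem2 stood at 355 and 194 RPKM in TAM against 2.92 and 3.88 in Fibroblast and the fatty acid binding protein gene Fabp5 at 328 and 174 RPKM in TAM against 8.03 and 6.02 in Fibroblast (log2 differences 5.91 and 4.92, adjusted p = 0.00115 and 0.000116). TAM 1 held more of all 3 transcripts than TAM 2. Of 19 iron and heme genes, 10 were higher and 3 lower (median 1.78, and 6 higher without Fibroblast 2), the count lower not above the share of all genes (17.3%). The hemoglobin scavenger receptor Cd163 stood at 112 and 147 RPKM in TAM against 1.42 and 2.59 in Fibroblast, the phagosomal metal transporter Slc11a1 at 225 and 155 RPKM in TAM against 3.06 and 3.77 in Fibroblast and the heme-degrading enzyme Hmox1 at 3075 and 1715 RPKM in TAM against 87.5 and 50.8 in Fibroblast (log2 differences 5.46, 5.42 and 5.08, adjusted p = 0.000189, 0.000189 and 0.000184). A pair of ferrireductase genes of the same family was on the Fibroblast side, Steap4 at 84.4 and 140.1 RPKM in Fibroblast 1 and Fibroblast 2 and 0.558 and 1.92 RPKM in TAM 1 and TAM 2 (log2 difference -5.69, SE 0.70, adjusted p = 0.000505) and Steap3 at 126 and 152 RPKM in Fibroblast against 33.6 and 48.9 in TAM (log2 difference -1.74, adjusted p = 0.00161).

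The vacuolar proton pump, which acidifies lysosomes, and receptors for extracellular nucleotides followed. Of 18 pump genes, 16 were higher in TAM and none lower (median 1.91). Atp6v0d2, a subunit isoform of macrophages and osteoclasts, stood at 8.65 and 7.06 RPKM in TAM 1 and TAM 2 and 0.0390 and 0 RPKM in Fibroblast 1 and Fibroblast 2 (log2 difference 3.11, SE 0.26, adjusted p = 0.000142), and the broadly used subunit gene Atp6v0c at 102 and 96.9 RPKM in TAM against 13.2 and 15.8 in Fibroblast (log2 difference 2.70, adjusted p = 0.000598). Of 14 genes that sense or degrade extracellular nucleotides, 9 were higher and 2 lower (median 1.63), the count lower not above the share of all genes (17.3%). The UDP receptor P2ry6 stood at 174 and 159.8 RPKM in TAM against 2.81 and 5.39 in Fibroblast and the ADP receptor P2ry12 at 20.1 and 22.6 RPKM in TAM against 0.123 and 0.0900 in Fibroblast (log2 differences 5.09 and 4.33, adjusted p = 0.00106 and 0.000372). The ATP-degrading enzyme Entpd2 stood at 44.1 and 65 RPKM in Fibroblast 1 and Fibroblast 2 and 0 and 1.97 RPKM in TAM 1 and TAM 2 (log2 difference -4.99, SE 0.54, adjusted p = 0.000303), and the adenosine receptor Adora2b at 38.2 and 46.4 RPKM in Fibroblast against 12.2 and 9.81 in TAM (log2 difference -1.85, adjusted p = 0.000793).

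Chemokines, which steer leukocytes, had members called on each side. Of 16 CC chemokines tested, 10 were higher and 2 lower in TAM (median 2.37), the count lower not above the share of all genes (17.3%). Ccl6 and Ccl9, named above, and Ccl12 had the largest differences, and Ccl12, a ligand of CCR2, stood at 385 and 226 RPKM in TAM 1 and TAM 2 and 4.34 and 3.57 RPKM in Fibroblast 1 and Fibroblast 2 (log2 difference 5.91, SE 1.05, adjusted p = 0.00321). On the Fibroblast side, Ccl11, the eosinophil attractant eotaxin, stood at 431 and 618 RPKM in Fibroblast 1 and Fibroblast 2 and 5.13 and 18.8 RPKM in TAM 1 and TAM 2 (log2 difference -5.55, SE 0.51, adjusted p = 0.000166). Ccl19, a ligand of the lymphoid homing receptor CCR7, stood at 5.24 and 6.19 RPKM in the Fibroblast libraries and is listed at 0 in both TAM libraries (adjusted p = 0.00013). CXC and related chemokines divided evenly, with 5 higher and 5 lower of 14 (median -0.31), the latter 3 without Fibroblast 1. Besides Pf4 and Ppbp, the neutrophil attractant Cxcl2 was higher in TAM, at 781 and 198 RPKM in TAM 1 and TAM 2 and 30.1 and 5.47 RPKM in Fibroblast 1 and Fibroblast 2 (log2 difference 4.80, SE 0.81, adjusted p = 0.0025). In both populations the first library held several times the Cxcl2 of the second, and its stress gene sum was higher as well. The part of dissociation in the Cxcl2 level was not tested.

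On the Fibroblast side Cxcl12, Cxcl13 and Cxcl14 had the largest differences among the CXC chemokines. Cxcl12, the ligand of CXCR4 that retains leukocytes and stem cells, stood at 414 and 623 RPKM in Fibroblast 1 and Fibroblast 2 and 2.30 and 11.3 RPKM in TAM 1 and TAM 2 (log2 difference -6.32, SE 0.75, adjusted p = 0.000433). Cxcl13, which attracts B cells, stood at 203 and 346 RPKM in Fibroblast against 2.22 and 6.75 in TAM, and Cxcl14 at 97.4 and 105 RPKM in Fibroblast against 1.73 and 4.66 in TAM (log2 differences -5.73 and -4.70, adjusted p = 0.00148 and 0.000341). Among 12 chemokine receptors tested, 8 were higher and 2 lower in TAM (median 2.76), the count lower not above the share of all genes (17.3%). The signaling receptors Ccr2 and Ccr1 were on the TAM side, with Ccr1 at 100.1 and 127 RPKM in TAM against 1.94 and 3.79 in Fibroblast (log2 difference 4.92, adjusted p = 0.000261). Both receptors on the Fibroblast side are atypical ones that bind chemokines without the usual signal. Ackr3, which takes up CXCL12, stood at 514 and 409.6 RPKM in Fibroblast 1 and Fibroblast 2 and 2.12 and 7.35 RPKM in TAM 1 and TAM 2 (log2 difference -6.49, SE 0.54, adjusted p = 0.000139), and Ackr1, which binds many CC and CXC chemokines, at 71.6 and 83.9 RPKM in Fibroblast against 0 and 3.67 in TAM (log2 difference -5.18, adjusted p = 0.000498). Ackr1 is also known from venous endothelium. Endothelial markers summed to 79.3 and 60.9 RPKM in the Fibroblast libraries and 18.6 and 38.3 RPKM in TAM, and their part in the Ackr1 level was not tested.

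**Figure D3:**
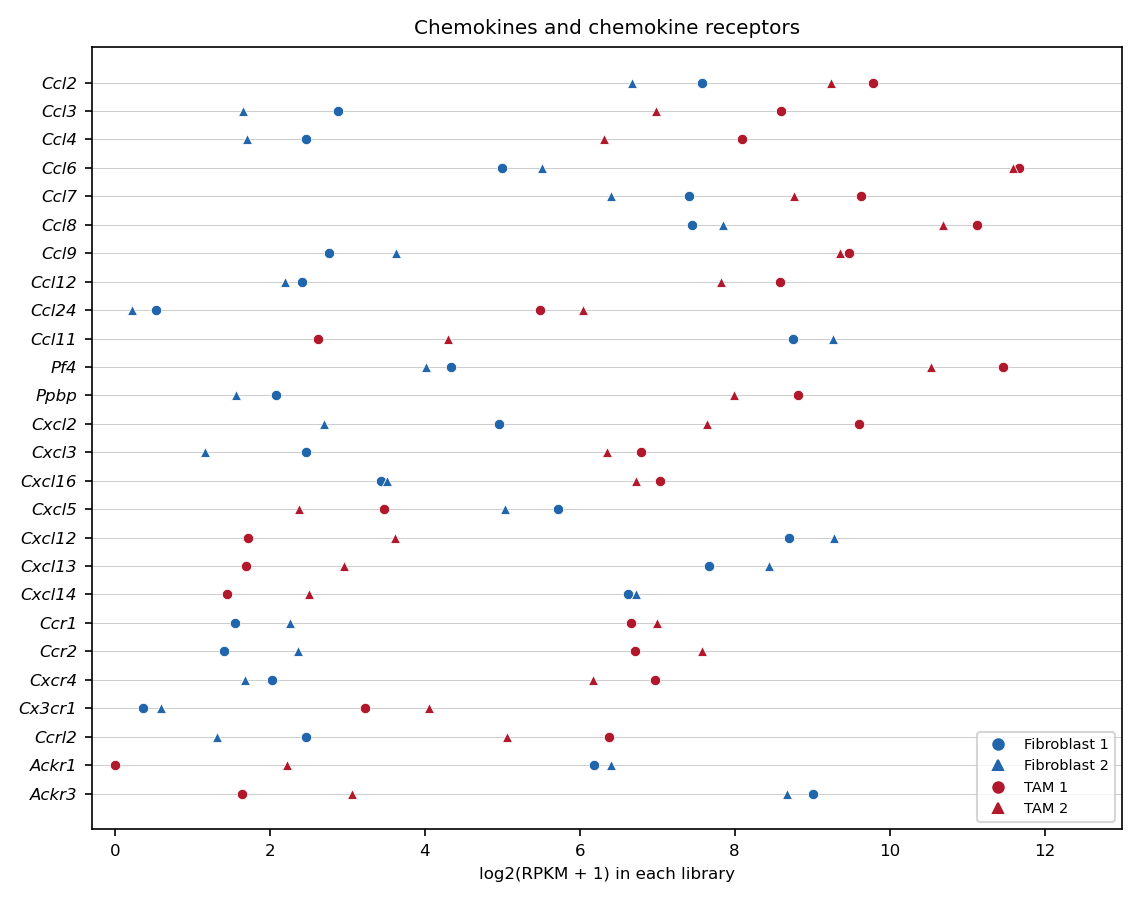
Level of 26 chemokine and chemokine receptor genes in each of the 4 libraries as log2(RPKM + 1), with Fibroblast in blue and TAM in red. Ccl6, Ccl9, Pf4 and Ppbp and the receptor genes Ccr1 and Ccr2 are higher in both TAM libraries, and Ccl11, Cxcl12, Cxcl13, Cxcl14, Ackr1 and Ackr3 are higher in both Fibroblast libraries.

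Cytokines that were called lay mostly on the TAM side. Of 22 interleukin and TNF family genes tested, 11 were higher and 5 lower in TAM (median 1.03, with fewer lower without TAM 1). The count lower is not far above the share of all genes (17.3%). Il1rn, the antagonist of the interleukin-1 receptor, stood at 75.4 and 62.3 RPKM in TAM against 1.84 and 2.19 in Fibroblast and oncostatin M (Osm) at 76.9 and 49.6 RPKM in TAM against 1.16 and 1.44 in Fibroblast (log2 differences 4.53 and 4.77, adjusted p = 0.00016 and 0.000219). Tnf and Il10, singled out after their values were seen, stood at 41.4 and 20.2 RPKM in TAM against 1.08 and 0.920 in Fibroblast and at 46.7 and 13.4 RPKM in TAM against 0.813 and 0 in Fibroblast (log2 differences 3.91 and 4.28, adjusted p = 0.000614 and 0.000872). Il33, an alarm signal stored in the nuclei of stromal cells, had the highest level of the 5 genes lower in TAM, at 309 and 311 RPKM in Fibroblast 1 and Fibroblast 2 and 3.37 and 7.77 RPKM in TAM 1 and TAM 2 (log2 difference -5.65, SE 0.43, adjusted p = 0.000116). Both Fibroblast libraries held it at nearly the same level. Among 18 checkpoint genes, 9 were higher and 3 lower (median 1.58, and 1 lower without Fibroblast 2), the count lower not above the share of all genes (17.3%). The inhibitory receptor Havcr2 (TIM-3) stood at 27.8 and 25.3 RPKM in TAM against 0.318 and 0.697 in Fibroblast, and Cd276 (B7-H3), a ligand on stromal cells, at 45.7 and 39.7 RPKM in Fibroblast against 8.44 and 4.49 in TAM (log2 differences 4.20 and -2.60, adjusted p = 0.000254 and 0.000314).

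To describe how ligands and receptors were placed, 86 known pairs were read from the same fit. In 11 pairs the ligand was called higher in Fibroblast and the receptor in TAM, and in 8 pairs the reverse. Both genes were called higher in TAM in 10 pairs and in Fibroblast in 15, and in 42 at least 1 of them was not called or not tested. Pairs that share a gene, such as CSF1 and IL-34 with CSF1R, are not independent.

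For the survival signal of macrophages the ligands were on the Fibroblast side and the receptor on the TAM side. Of 10 colony-stimulating factor genes, 5 were higher and 3 lower in TAM (median 1.56). Csf1 stood at 146 and 144 RPKM in Fibroblast 1 and Fibroblast 2 and 6.04 and 8.35 RPKM in TAM 1 and TAM 2 (log2 difference -4.17, SE 0.28, adjusted p = 0.000104), and Il34, the other ligand of CSF1R, at 26.8 and 16 RPKM in Fibroblast 1 and Fibroblast 2 and 0 and 0.515 RPKM in TAM 1 and TAM 2 (log2 difference -4.14, SE 0.45, adjusted p = 0.000292). Csf1r itself had a log2 difference of 5.38 (adjusted p = 0.000505). The chemokine Cxcl12 on the Fibroblast side was matched by its receptor gene Cxcr4 in TAM, at 125 and 71.3 RPKM in TAM against 3.08 and 2.21 in Fibroblast (log2 difference 4.72, adjusted p = 0.000543). C3 in Fibroblast faced C3ar1 in TAM, with the values given for complement. Rarres2, which encodes the leukocyte attractant chemerin, stood at 1176 and 1309.8 RPKM in Fibroblast 1 and Fibroblast 2 and 7.83 and 31.8 RPKM in TAM 1 and TAM 2 (log2 difference -6.19, SE 0.67, adjusted p = 0.000289) and its receptor gene Cmklr1 at 85.3 and 82.6 RPKM in TAM against 4.39 and 7.26 in Fibroblast (log2 difference 3.67, adjusted p = 0.00135). Pros1, a bridge that lets the receptor MERTK recognize dying cells, stood at 113 and 132 RPKM in Fibroblast against 17.7 and 24.6 in TAM, and Mertk at 25.2 and 39.4 RPKM in TAM against 1.41 and 1.49 in Fibroblast (log2 differences -2.49 and 3.73, adjusted p = 0.000362 and 0.00217). Gas6, another ligand paired with Mertk, was not called, at a mean of 203 RPKM in TAM and 109 RPKM in Fibroblast (log2 difference 0.87, adjusted p = 0.278). The guidance factor Sema3c stood at 74.3 and 91.6 RPKM in Fibroblast against 0.0240 and 2.94 in TAM and its receptor subunit Plxnd1 at 28.3 and 46.3 RPKM in TAM against 8.85 and 8.05 in Fibroblast (log2 differences -5.38 and 1.98, adjusted p = 0.000586 and 0.000925).

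Apart from the lipid carrier Apoe, signals placed from TAM to Fibroblast were inflammatory cytokines and growth factors. Osm in TAM faced its receptor gene Osmr in Fibroblast, which stood at 50.8 and 59.5 RPKM in Fibroblast 1 and Fibroblast 2 and 0.411 and 2.04 RPKM in TAM 1 and TAM 2 (log2 difference -4.76, SE 0.48, adjusted p = 0.000218). Il1b faced Il1r1, the signaling interleukin-1 receptor, at 57.5 and 82.3 RPKM in Fibroblast 1 and Fibroblast 2 and 1.82 and 3.54 RPKM in TAM 1 and TAM 2 (log2 difference -4.28, SE 0.34, adjusted p = 0.000125). Tgfb1, the fibrosis-promoting growth factor, stood at 175 and 162 RPKM in TAM 1 and TAM 2 and 24.7 and 12.1 RPKM in Fibroblast 1 and Fibroblast 2 (log2 difference 3.21, SE 0.49, adjusted p = 0.00144) and its receptor Tgfbr2 at 396 and 484 RPKM in Fibroblast 1 and Fibroblast 2 and 49.6 and 68.3 RPKM in TAM 1 and TAM 2 (log2 difference -2.89, SE 0.35, adjusted p = 0.000481). TAM libraries also held Tgfbr2, at a level well above zero. Tgfb2 and Tgfb3, other ligands paired with Tgfbr2, were called higher in Fibroblast (log2 differences -3.36 and -1.32, adjusted p = 0.000343 and 0.00209). Their means were 11.3 and 13.6 RPKM in Fibroblast against 0.21 and 4.83 RPKM in TAM. The growth factor Pdgfb stood at 10.6 and 8.59 RPKM in TAM against 1.93 and 1.29 in Fibroblast and its receptor Pdgfrb had a log2 difference of -4.92 (log2 difference of Pdgfb 2.03, adjusted p = 0.00459 for Pdgfb and 0.000111 for Pdgfrb). Pdgfd, another ligand of PDGFRB, was in contrast called higher in Fibroblast (log2 difference -4.26, adjusted p = 0.000151). The remaining 8 pairs on opposite sides each held a gene whose call was lost when a TAM or Fibroblast library was left out. The highest adjusted p was 0.264 without TAM 1 for Lrp1 (paired with Apoe), 0.214 without TAM 2 for Notch1 (with Jag1), 0.166 without Fibroblast 1 for Sema3a (with Nrp1), 0.155 without Fibroblast 2 for Cd200 (with Cd200r1), 0.116 without Fibroblast 1 for Cx3cl1 (with Cx3cr1), 0.102 without Fibroblast 1 for Pdgfc (with Pdgfra), 0.075 without Fibroblast 1 for Il15 (with Il15ra) and 0.0728 without TAM 1 for Il1a (with Il1r1).

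Of the pairs with both genes on 1 side, Ccl2 and its receptor Ccr2 were both higher in TAM, with Ccl2 at 878 and 607 RPKM in TAM against 191 and 101 in Fibroblast (log2 difference 2.39, adjusted p = 0.00346, and 0.0502 without Fibroblast 2). Il10 and its receptor Il10ra were likewise both higher in TAM, with Il10ra at 77.7 and 78.4 RPKM in TAM against 1.49 and 2.11 in Fibroblast (log2 difference 4.83, adjusted p = 0.000195). On the Fibroblast side, Il33 was accompanied by its receptor gene Il1rl1, at 39.9 and 14.7 RPKM in Fibroblast against 0.623 and 0.745 in TAM, and Bmp4 by Bmpr1a, at 9.18 and 6.35 RPKM in Fibroblast against 0 and 0.112 in TAM and 14.8 and 19.1 RPKM in Fibroblast against 0.789 and 1.30 in TAM (log2 differences -3.91, -3.04 and -3.13, adjusted p = 0.00146, 0.000157 and 0.000647). Ccl2, Il10ra, Il1rl1, Bmp4 and Bmpr1a were singled out after their values were seen.

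**Figure D4:**
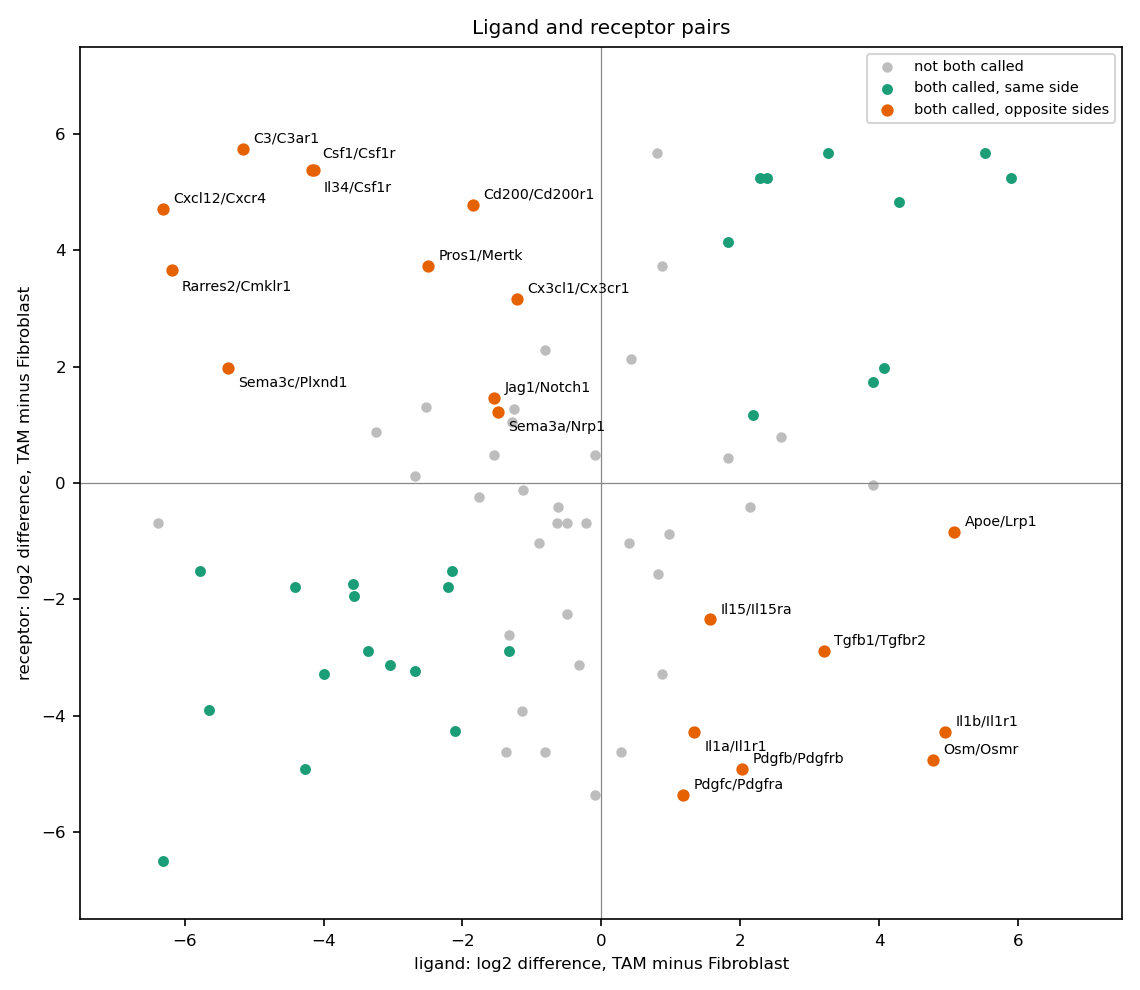
Log2 difference (TAM minus Fibroblast) of the ligand on the horizontal axis and of its receptor on the vertical axis, 1 point per pair with both genes tested. Orange points in the upper left are the 11 pairs with the ligand higher in Fibroblast and the receptor higher in TAM, and those in the lower right the 8 pairs with the reverse.

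Growth factor families that pattern and maintain mesenchyme were on the Fibroblast side. Of 25 bone morphogenetic protein and activin genes, 16 were lower and 1 higher in TAM (median -2.84). Secreted antagonists or binding proteins had the 3 largest differences. Fstl1 stood at 1317 and 1317 RPKM in Fibroblast 1 and Fibroblast 2 and 6.68 and 35 RPKM in TAM 1 and TAM 2 (log2 difference -6.31, SE 0.66, adjusted p = 0.000252), Nbl1 at 211 and 187 RPKM in Fibroblast against 1.20 and 7.24 in TAM and Chrdl1 at 56.8 and 79.3 RPKM in Fibroblast against 0.0560 and 1.07 in TAM (log2 differences -5.55 and -5.53, adjusted p = 0.000224 and 0.00029). The 1 member called higher in TAM was the stress-induced family member Gdf15, at 45.5 and 16.9 RPKM in TAM 1 and TAM 2 and 1.78 and 0.390 RPKM in Fibroblast 1 and Fibroblast 2 (log2 difference 3.88, SE 0.64, adjusted p = 0.00219).

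The WNT pathway showed both ligands with their receptors and inhibitors on the Fibroblast side. Of 23 ligands and receptors tested, 17 were lower in TAM and none higher (median -2.13), and 10 were lower when only genes that reach 5 RPKM were tested. Wnt2 stood at 39 and 25.7 RPKM in Fibroblast 1 and Fibroblast 2 and 0 and 0.634 RPKM in TAM 1 and TAM 2 (log2 difference -4.68, SE 0.49, adjusted p = 0.000252), and the receptors Fzd1 and Fzd2 at 35.1 and 33.5 RPKM in Fibroblast against 1.39 and 3.26 in TAM and at 19 and 14.1 RPKM in Fibroblast against 0.193 and 0.861 in TAM (log2 differences -3.47 and -3.54, adjusted p = 0.000326 and 0.00019). Of 14 antagonists and feedback genes, 10 were lower and none higher (median -1.89). The secreted frizzled-related inhibitors Sfrp4, Sfrp2 and Sfrp1 led. Sfrp4 stood at 394 and 416 RPKM in Fibroblast 1 and Fibroblast 2 and 1.53 and 7.90 RPKM in TAM 1 and TAM 2, Sfrp2 at 230.4 and 206 RPKM in Fibroblast against 0.934 and 6.03 in TAM and Sfrp1 at 17.9 and 25.7 RPKM in Fibroblast against 0 and 1.17 in TAM (log2 differences -6.42, -5.89 and -3.93, adjusted p = 0.000346, 0.000216 and 0.000646). The level of Sfrp4 in Fibroblast was thus above that of any WNT ligand or receptor named here.

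Most TGF-beta genes that were called were on the Fibroblast side. Of 19 tested, 10 were lower and 2 higher in TAM and 7 were not called (median -1.29), the count higher not above the share of all genes (17.4%). The 2 on the TAM side were Tgfb1 and Nrros, which encodes a protein that anchors latent TGF-beta 1 on myeloid cells and stood at 164 and 139.6 RPKM in TAM 1 and TAM 2 and 3.11 and 3.14 RPKM in Fibroblast 1 and Fibroblast 2 (log2 difference 5.21, SE 0.41, adjusted p = 0.00012). Fibroblast held instead Lrrc32, the related anchor GARP, at 42.2 and 30.1 RPKM in Fibroblast 1 and Fibroblast 2 and 0.0920 and 1.70 RPKM in TAM 1 and TAM 2 (log2 difference -4.42, SE 0.46, adjusted p = 0.000245). The matrix storage protein Ltbp1 stood at 52.8 and 62.7 RPKM in Fibroblast against 1.12 and 2.18 in TAM and the co-receptor Tgfbr3 at 76.6 and 84.1 RPKM in Fibroblast against 1.43 and 4.99 in TAM (log2 differences -4.49 and -4.41, adjusted p = 0.00012 and 0.000266). The paralogous anchors Nrros and Lrrc32 were therefore each called in a different population.

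Binding proteins led the insulin-like growth factor system. Of 12 genes tested, 8 were lower in TAM and none higher (median -1.64). Igfbp5 stood at 323 and 343 RPKM in Fibroblast 1 and Fibroblast 2 and 0.757 and 8.38 RPKM in TAM 1 and TAM 2 (log2 difference -6.36, SE 0.87, adjusted p = 0.000864), Igfbp7 at 528 and 472 RPKM in Fibroblast against 5.13 and 28.6 in TAM and Igfbp3 at 78.9 and 49.1 RPKM in Fibroblast against 0.527 and 1.37 in TAM (log2 differences -5.21 and -5.05, adjusted p = 0.000691 and 0.000273). Of 9 fibroblast growth factor genes, 8 were lower and none higher (median -1.94), and 5 were lower without TAM 1 or without TAM 2. Fgf7, the keratinocyte growth factor, stood at 41.8 and 40.5 RPKM in Fibroblast 1 and Fibroblast 2 and 0.525 and 1.59 RPKM in TAM 1 and TAM 2 (log2 difference -4.41, SE 0.32, adjusted p = 0.000111), Fgf18 at 17.6 and 16.2 RPKM in Fibroblast against 0 and 0.582 in TAM and Fgf2 at 10.2 and 15.6 RPKM in Fibroblast against 0 and 0.323 in TAM (log2 differences -3.83 and -3.56, adjusted p = 0.000136 and 0.000381). The epidermal growth factor receptor gene Egfr stood at 49.2 and 66.7 RPKM in Fibroblast against 1.16 and 1.58 in TAM (log2 difference -4.63, adjusted p = 0.000152).

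Vessel-related factors and the platelet-derived growth factor family were mostly called on the Fibroblast side. Of 18 angiogenic genes, 9 were lower and 3 higher in TAM (median -1.12, and 1 higher without TAM 1, without TAM 2 or under quantile normalization). The count higher is near the share of all genes (17.4%). Figf, which encodes the lymphatic growth factor VEGF-D, stood at 121 and 143 RPKM in Fibroblast 1 and Fibroblast 2 and 1.44 and 3.46 RPKM in TAM 1 and TAM 2 (log2 difference -5.33, SE 0.34, adjusted p = 0.000104), and Thbs2, the vessel inhibitor thrombospondin-2, at 294 and 252 RPKM in Fibroblast against 2.55 and 7.11 in TAM (log2 difference -5.67, adjusted p = 0.000134). On the TAM side the semaphorin and VEGF co-receptor Nrp2 stood at 24 and 23.6 RPKM in TAM against 4.30 and 3.38 in Fibroblast (log2 difference 2.37, adjusted p = 0.000666). Of 7 PDGF genes, 4 were lower and 2 higher (median -3.49, and 1 higher without Fibroblast 1, TAM 1 or TAM 2 or under upper-quartile rescaling). Pdgfd, a ligand of PDGFRB, stood at 16.7 and 19.8 RPKM in the Fibroblast libraries and is listed at 0 in both TAM libraries (adjusted p = 0.000151). For the receptors Pdgfra and Pdgfrb, whose levels are given with the markers, the log2 difference was -5.37 and -4.92 (adjusted p = 0.000136 and 0.000111).

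Contractile genes of myofibroblasts were on the Fibroblast side. Of 20 tested, 14 were lower in TAM and none higher (median -2.38). Myl9, a myosin light chain, stood at 87.4 and 52.7 RPKM in Fibroblast 1 and Fibroblast 2 and 0.433 and 1.66 RPKM in TAM 1 and TAM 2 (log2 difference -5.14, SE 0.48, adjusted p = 0.000184). Acta2, the smooth muscle actin that marks myofibroblasts, stood at 109.8 and 51.3 RPKM in Fibroblast 1 and Fibroblast 2 and 2.87 and 4.09 RPKM in TAM 1 and TAM 2 (log2 difference -4.10, SE 0.40, adjusted p = 0.000191), and the intermediate filament gene Des at 35.7 and 16.2 RPKM in Fibroblast against 0.927 and 0.417 in TAM (log2 difference -3.93, adjusted p = 0.000293). Fibroblast 1 held more of each than Fibroblast 2, by 1.66 to 2.20-fold. Pericytes also contract and express these genes, and all 10 of the 10 pericyte markers were lower in TAM (median -3.69), among them Rgs5 at 67.2 and 57.7 RPKM in Fibroblast against 0.194 and 0.495 in TAM. The summed level of the pericyte markers, Des among them, was higher in Fibroblast 1 as well. The part of pericytes in the contractile levels was not tested. Of 13 cadherin and gap junction genes, 6 were lower and 1 higher (median -0.82). Cdh11, the cadherin of mesenchymal cells, stood at 23.4 and 20.9 RPKM in Fibroblast 1 and Fibroblast 2 and 0.0830 and 0.637 RPKM in TAM 1 and TAM 2 (log2 difference -4.12, SE 0.33, adjusted p = 0.000124). Without Fibroblast 1, Fibroblast 2 or TAM 1 the count lower was 2, 3 or 2 (3 with a pseudocount of 5 RPKM), and none was higher without Fibroblast 1 or TAM 2.

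Retinoid genes that were called lay mostly on the Fibroblast side, and guidance genes had members called on each side. Of 18 retinoid genes, 9 were lower and 2 higher in TAM (median -1.24), the latter 1 without Fibroblast 1, Fibroblast 2 or TAM 2 or with a pseudocount of 0.1 RPKM and 4 without either Total tumor library. The 2 called higher are not above the share of all genes (17.4%). The retinoic acid-forming dehydrogenases Aldh1a3 and Aldh1a1 stood at 52.3 and 55.6 RPKM in Fibroblast against 0.241 and 0.658 in TAM and at 36.9 and 41.5 RPKM in Fibroblast against 0.116 and 1.66 in TAM (log2 differences -5.26 and -4.54, adjusted p = 0.000145 and 0.00068). Dhrs3, which turns retinal back to retinol, was on the TAM side at 243 and 183 RPKM in TAM 1 and TAM 2 and 25.3 and 30.3 RPKM in Fibroblast 1 and Fibroblast 2 (log2 difference 2.89, SE 0.42, adjusted p = 0.00116). Semaphorins, plexins and neuropilins, guidance cues and their receptors, had 13 members lower and 8 higher of 26 (median -0.88). The largest differences on the Fibroblast side were those of the secreted class 3 semaphorins Sema3c, given above, and Sema3b, at 20.1 and 22 RPKM in Fibroblast against 0 and 0.936 in TAM. Those on the TAM side were of the membrane-held class 4 semaphorins Sema4a, at 58.9 and 62 RPKM in TAM against 2.31 and 3.06 in Fibroblast, and Sema4d, at 16.4 and 20.03 RPKM in TAM against 1.08 and 1.51 in Fibroblast (log2 differences -3.99 for Sema3b, 4.07 for Sema4a and 3.07 for Sema4d, adjusted p = 0.000179, 0.00014 and 0.000942). Left without Fibroblast 1, Fibroblast 2 or TAM 1, 8, 8 or 6 members were lower, and 5, 7 or 6 were higher, so the counts were equal without TAM 1. Without TAM 2, 5 were higher. The class 4 member Sema4c, named after its value was seen, was lower in TAM, at 14.3 and 14.2 RPKM in Fibroblast against 3.41 and 3.76 in TAM (log2 difference -1.73, adjusted p = 0.000474).

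Many cytoskeletal and signaling proteins come as a pair of paralogs, of which 1 is used mainly in blood cells. In 35 of 36 such pairs the blood-cell paralog was called higher in TAM, and the other paralog was higher in 7, lower in 12 and not called or not tested in 17. The 7 are near the share of all genes called higher (17.4%), and the 12 are above the share called lower (17.3%). The median log2 difference was 4.50 for the blood-cell paralogs and -0.26 for the others. In 12 pairs the paralogs were on opposite sides. The pair farthest apart was Nckap1l and Nckap1, alternative subunits of the actin-regulating WAVE complex. Nckap1l stood at 113 and 156 RPKM in TAM 1 and TAM 2 and 1.72 and 3.23 RPKM in Fibroblast 1 and Fibroblast 2 (log2 difference 5.30, SE 0.53, adjusted p = 0.000216) and Nckap1 at 48.6 and 56.6 RPKM in Fibroblast 1 and Fibroblast 2 and 0.938 and 3.52 RPKM in TAM 1 and TAM 2 (log2 difference -4.17, SE 0.76, adjusted p = 0.00361). The kindlins, which activate integrins, followed, with Fermt3 at 206 and 163 RPKM in TAM against 3.40 and 3.36 in Fibroblast and Fermt2 at 58.1 and 45.5 RPKM in Fibroblast against 1.63 and 3.80 in TAM (log2 differences 5.39 and -3.88, adjusted p = 0.000159 and 0.000165). The actin-bundling plastins Lcp1 and Pls3 had log2 differences of 5.27 and -2.83, the cortactin family members Hcls1 and Cttn 5.23 and -3.28 and the parvins Parvg and Parva 2.97 and -3.70. All 6 of these genes were called, with adjusted p-values up to 0.000771. The blood-cell paralogs were defined by their use in blood cells, so their direction in macrophages against fibroblasts follows from the choice. The other paralogs were chosen as their counterparts outside blood cells, so their direction is not free of that choice either. The single blood-cell paralog that was not called was the glucose transporter Slc2a3, named after its value was seen, at 1.00 and 1.75 RPKM in TAM against 3.79 and 2.56 in Fibroblast (log2 difference -0.81, adjusted p = 0.0744, 0.0281 under upper-quartile rescaling and 0.0465 and 0.0471 without Total tumor 1 and Total tumor 2).

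**Figure D5:**
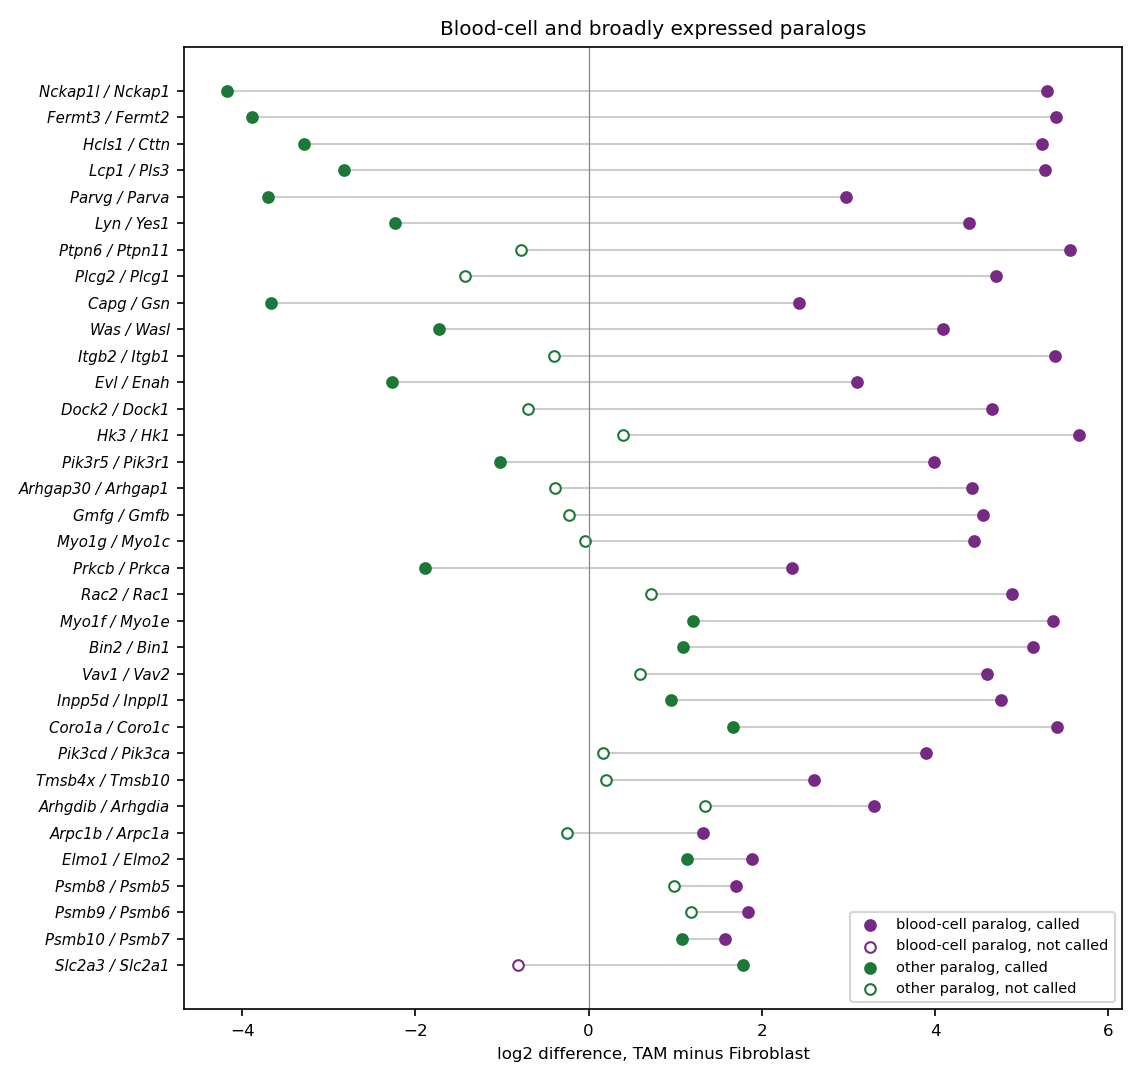
Log2 difference (TAM minus Fibroblast) of the blood-cell paralog (purple) and of the other paralog (green) of the 34 pairs drawn, filled where called. The purple points lie to the right of 0 in every pair but Slc2a3 and Slc2a1, and the green points spread to both sides, from Nckap1 at -4.17 to Slc2a1 at 1.78.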

How the data were processed

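RNA-seq libraries (200 ng of RNA, oligo-dT primed, 50-base reads, per the labels' protocols) were used as RPKM per transcript, the values the authors deposited; STAR, HOMER and mm9 are named, without versions or roles, in the submitters' processing notes. The RPKM table gives no read counts; depth, estimated from the steps between low values, limits what low genes can show. Each of 23952 symbols was represented by the transcript with the highest mean RPKM over all 8 libraries, and 13311 that reached 1 RPKM in at least 2 libraries were tested. limma 3.58.1 (R 4.3.3, trended variance, 4 residual degrees of freedom) was fitted to log2(RPKM + 1) over all 4 groups, with Benjamini-Hochberg adjustment over all genes tested. Folds of low genes are understated on this scale. The fit was tested on simulated data, where it recovered 4 of 50 genes changed by a log2 difference of 1 and more of those changed by larger ones. Far fewer genes were changed there than were called in the data. This makes the adjustment stricter in the simulation, so its recovery does not carry over to the data. A gene not called may still differ. Tables were made with Python 3.11.15, pandas 2.3.3 and numpy 2.4.6.

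The comparison and the 58 gene lists (1025 genes) were chosen with earlier results of these data known. Outside genes of collagen turnover, named genes were the 12 largest called differences per direction with a group mean of at least 10 RPKM and no overlap, up to 3 called members per list and direction, ligand and receptor pairs called on opposite sides, 6 paralog pairs and 8 markers. A further 16 genes were named after their values were seen, as were Gas6, Tgfb2 and Tgfb3. Some genes the rule chose are not reported here. Lists are described by counts and medians without a test. Alternatives were other pseudocounts, filters, scalings, transcript choices, a fit without trend, a fit of the 4 libraries alone, a replicate block and leaving out each library.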

Additional observations from a re-analysis of the deposited data

How the results depend on the processing

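The counts of genes called higher and lower in TAM were 2314 and 2300. Upper-quartile rescaling gave 1773 and 2845, and a fit of only the 4 libraries compared gave 3044 and 2581. Requiring 5 RPKM gave 2048 and 1705, with fewer genes tested. With 1 library left out, where the remaining library of that group is assumed to vary like the other groups, the counts ran from 1382 to 3328 higher and from 1738 to 2782 lower. The lowest of both came without Fibroblast 2 and the highest without Total tumor 2, and the cause was not tested. A replicate block gave 2039 and 2114. All groups share 2 replicate numbers, and the labels tie them to no animal or batch, so whether they pair the samples was not settled. Libraries numbered 1 had an estimated 8.54 to 10.36 M reads and those numbered 2 had 4.28 to 4.72. Deviations from the group means correlated at 0.16 (Fibroblast and TAM), 0.21 (LLC and Fibroblast) and 0.27 (LLC and TAM), and at -0.18 to -0.36 between Total tumor and the others. Of 20 alternatives, the others were a pseudocount of 0.1 or 5, no filter, quantile normalization, no trend, the mean over transcripts, protein-coding genes only and a 2-fold minimum. Of 257 genes chosen for naming, 207 had the same call in every alternative that gave a value, and none changed direction. Gas6, Tgfb2 and Tgfb3 are not among the 257. RPKM limits the precision of low genes, since 1 read on a transcript of 2 kb is worth 0.0483 to 0.117 RPKM here.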

Other observations

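Genes of basal metabolism, growth and secretion had list medians between -0.46 and 1.64, and many of their counts moved when 1 library was left out. Of 24 glycolysis genes, 16 were called higher and 3 lower in TAM (median 1.64), and 10, 6 and 10 were higher without Fibroblast 1, Fibroblast 2 and TAM 2, while 5 were lower under upper-quartile rescaling. Hk3, the hexokinase of myeloid cells, stood at 138 and 109.9 RPKM in TAM 1 and TAM 2 and 1.00 and 1.98 RPKM in Fibroblast 1 and Fibroblast 2 (log2 difference 5.67, SE 0.52, adjusted p = 0.000176), whereas the lactate transporter gene Slc16a1 stood at 25.2 and 24.1 RPKM in Fibroblast against 3.58 and 4.59 in TAM (log2 difference -2.34, adjusted p = 0.000184). Of 33 oxidative phosphorylation genes, 3 were called higher and none lower (median 0.78), the count higher not above the share of all genes (17.4%). That count was 0 without Fibroblast 1, Fibroblast 2 or TAM 1, 1 without TAM 2, LLC 1 or LLC 2, and 24 without either Total tumor library (22 from the 4 libraries alone, and 1 under upper-quartile rescaling). Of 30 genes of DNA replication and mitosis, 8 were higher and none lower (median 0.73), with 2 without Fibroblast 2, 3 without TAM 1 or TAM 2, 5 without LLC 1 or LLC 2, 3 under upper-quartile rescaling and 13 without either Total tumor library. The replication helicase subunit Mcm3 stood at 29.6 and 26.5 RPKM in TAM against 11.4 and 9.83 in Fibroblast (log2 difference 1.32, adjusted p = 0.00326).

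Interferon-stimulated genes, which many cell types share, were called higher in TAM for 8 of 24 members (median 0.56), and for 4, 4, 4 and 5 without Fibroblast 1, Fibroblast 2, TAM 1 and TAM 2 (5 under upper-quartile rescaling). The antiviral genes Mx1, Rsad2 and Oas3 stood at 53.6 and 34.3 RPKM in TAM against 5.82 and 7.36 in Fibroblast, 41.6 and 44 RPKM in TAM against 7.88 and 8.02 in Fibroblast and 29.7 and 33.6 RPKM in TAM against 5.45 and 7.43 in Fibroblast (log2 differences 2.54, 2.29 and 2.14, adjusted p = 0.000902, 0.00101 and 0.00138). In the secretory pathway, 10 of 39 genes were lower in TAM and none higher (median -0.46), with 5 lower without Fibroblast 2 and 16 without either Total tumor library (18 under upper-quartile rescaling and 16 under quantile normalization). Kdelr3, a receptor that returns escaped chaperones to the endoplasmic reticulum, stood at 82.8 and 70.1 RPKM in Fibroblast 1 and Fibroblast 2 and 1.82 and 3.17 RPKM in TAM 1 and TAM 2 (log2 difference -4.49, SE 0.37, adjusted p = 0.000136), and Creb3l1, a membrane-bound transcription factor of secretory cells, at 75.2 and 68.7 RPKM in Fibroblast against 5.47 and 4.94 in TAM (log2 difference -3.55, adjusted p = 0.000154). Sterol and fatty acid synthesis had 4 of 24 genes lower in TAM (2 without Fibroblast 2) and 1 higher (none without any 1 TAM or Fibroblast library, 4 without either Total tumor library), neither above the share of all genes (17.3% lower and 17.4% higher). The largest difference was that of the desaturase Scd1 at 20.4 and 23.5 RPKM in Fibroblast against 2.46 and 2.40 in TAM (log2 difference -2.74, adjusted p = 0.000167).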
